A study of Mus musculus with 8 samples.

Results

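The lysosomal degradation genes examined here are 36 genes chosen by name: subunits of the proton pump, cathepsins, other hydrolases of the lysosome, the precursors of the saposins and granulins, and proteins of the lysosomal membrane and of cholesterol export. The choice was made with earlier results of these data known. Of the 36 genes, 35 were measured, out of 12094 genes tested on the arrays. Probe sets annotated to several genes were not used. The annotation gave no probe set for Atp6v0c alone, the proteolipid subunit that forms the rotor ring of the pump, so that gene was not analysed here. The 36 genes had 86 probe sets annotated to 1 gene, of which 71 passed the signal filter. Each gene was read through its kept probe set of highest mean.

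RNA came from the sciatic nerve of adult mice, 7 days after the nerve was cut at the sciatic notch. The injured sample was a 10 mm piece of the stump beyond the cut, and the uninjured sample was the nerve of the other side of the body. The 4 groups were cut and uncut nerve of mice labelled WT and of mice labelled c-Jun KO, called control and mutant below, with 2 arrays in each and 8 in all. Each array held nerves pooled from 4 or 6 mice, so the p-values measure the spread between pools. The labels give no Cre driver. In the published study, c-Jun was removed from Schwann cells with Cre under the promoter of the myelin protein P0, and other cells of the nerve kept the gene. The labels name the tissue as Schwann cells, but the sampled material was a whole nerve segment with all its cell types. The labels say of age only that the mice were adult.

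Lysosomes break down protein, lipid and sugar chains at acid pH. The vacuolar ATPase (V-ATPase) sets that pH: its V1 sector splits ATP, and its membrane-bound V0 sector carries protons into the lysosome. Cathepsins then cleave protein, glycosidases and lipases cleave the sugar chains and lipids of membranes, and LAMP and NPC proteins form the limiting membrane and let cholesterol out. In a cut nerve the part beyond the lesion loses its axons and its myelin, and both Schwann cells and macrophages that enter the nerve digest myelin debris.

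The values are log2 signals, so a difference of 1 is a 2-fold change. Array medians lay between 6.59 and 6.65, and 25th percentiles between 4.95 and 5.01. Over 12094 genes, replicate arrays correlated at r = 0.984 to 0.989, control with mutant arrays of 1 injury state at 0.977 to 0.987, and cut with uncut arrays at 0.854 to 0.894. Jun itself read 9.58 and 9.70 in control uncut, 11.88 and 11.96 in control cut, 9.62 and 9.59 in mutant uncut, and 10.39 and 10.80 in mutant cut nerve. It was therefore lower in cut mutant than in cut control nerve (difference -1.33, limma adjusted p = 0.00866) but still rose with injury in the mutant (0.99, adjusted p = 0.00150). Milk protein genes differed between arrays and were high on both arrays of mutant uncut nerve, the baseline of the mutant injury contrast: their mean log2 signal was 4.69 and 4.73 in control uncut, 7.72 and 5.43 in control cut, 8.91 and 7.81 in mutant uncut, and 4.69 and 6.81 in mutant cut nerve. With the cut array of higher milk protein signal left out in each genotype, 23 of the 35 lysosomal genes were called higher after injury in control and 25 in mutant nerve. Leaving out mutant uncut replicate 1 or 2 gave 27 and 25 in mutant nerve, and both cannot be left out. In a fit of the control arrays alone 24 of 35 were higher.

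Most of the lysosomal genes were higher after nerve injury in both genotypes. In control nerve 28 of 35 were higher after the cut and 0 were lower, against 22.8% of all genes tested called higher and 17.5% called lower (limma, Benjamini-Hochberg adjusted p under 0.05, two-sided). In mutant nerve 31 of 35 were higher and 0 lower, against 18.1% and 17.8% of all genes. The median difference was 1.01 in control and 0.89 in mutant nerve, where the median of all genes was 0.05 and -0.00. At least 2-fold rises were measured for 18 genes in control and 16 in mutant nerve. Of all 12094 genes, 1511 and 1370 were called with a change of at least 2-fold in either direction. The difference was positive for all 35 genes in both genotypes, and for 6700 of all genes in control and 6036 in mutant nerve. In whole tissue, more cells of a type and more RNA per cell cannot be told apart.

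The arrays of cut nerve stood clear of the arrays of uncut nerve for most of these genes. For 33 of 35 genes, all 4 cut arrays read higher than all 4 uncut arrays, which was so for 28.2% of all genes tested. Atp6v0d2 and Gla are among these 33 and among the genes called above. Both passed the signal filter through their cut arrays alone, so their place in these counts is no independent result. The exceptions were Atp6v0a1 and Atp6v0e, both subunits of the V0 sector. The log2 of the summed signal of the 35 genes was 16.28 and 16.27 in control uncut, 17.32 and 17.28 in control cut, 16.28 and 16.26 in mutant uncut, and 17.41 and 17.29 in mutant cut nerve. Cut and uncut nerve thus differed by about a doubling of summed signal, and mutant and control overlapped in each injury state.

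**Figure D1:**
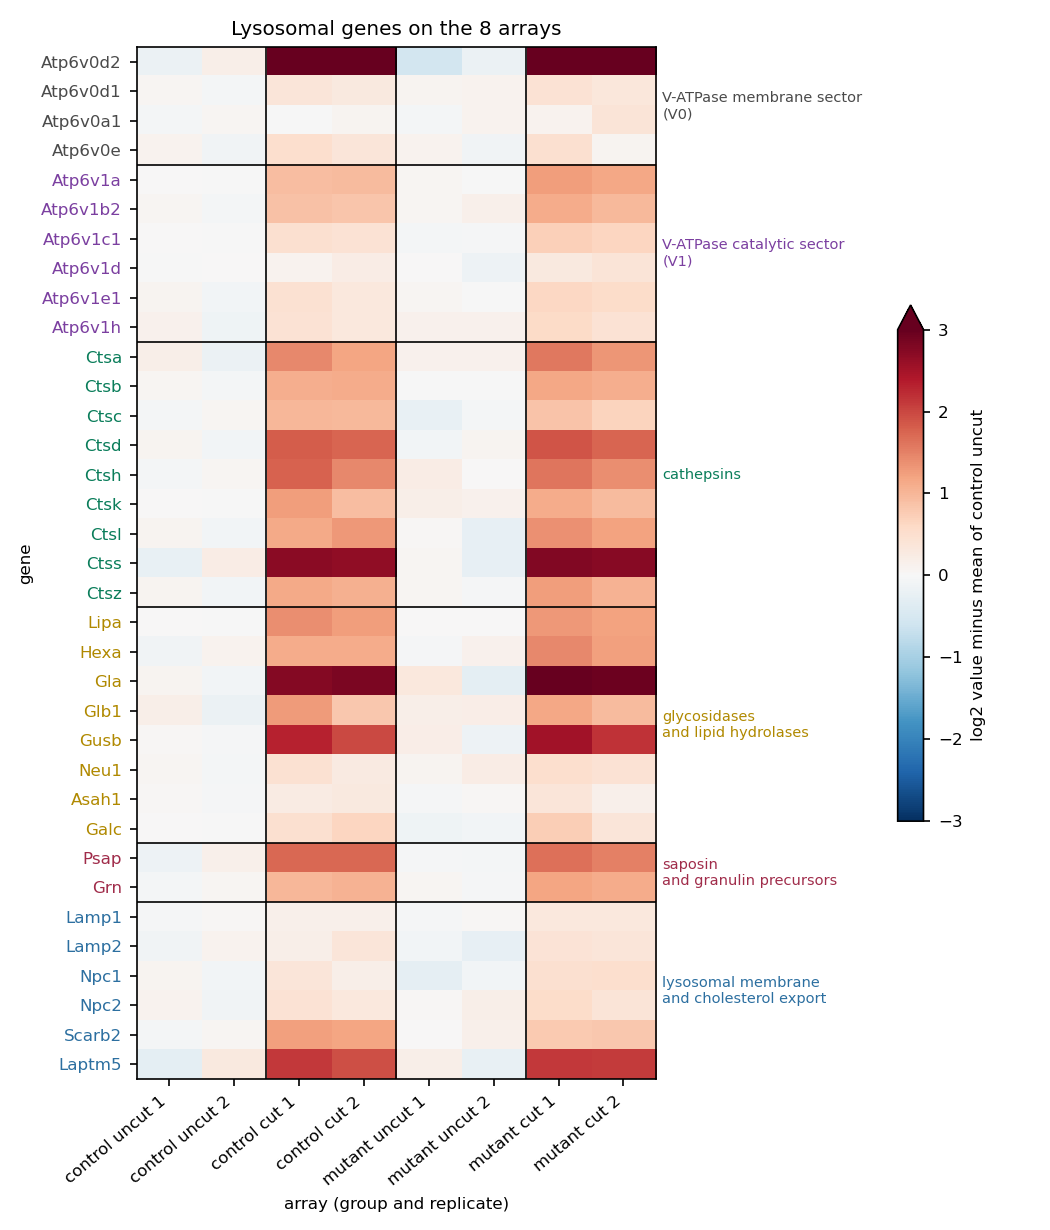
Heat map of the log2 signal of each of the 35 genes on each of the 8 arrays, minus the mean of the gene's control uncut arrays. Rows are genes grouped by role, columns are arrays, and the colour scale stops at a difference of 3. The 4 cut arrays are raised for most rows in both genotypes, and the rows of Atp6v0a1 and Lamp1 stay pale.

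Macrophage markers moved with the same injury contrast. Of 20 macrophage genes, 19 rose in control and 17 in mutant nerve, and 0 fell, against 22.8% and 18.1% of all genes called higher. The log2 of their summed signal lay between 14.30 and 14.60 in control uncut, 16.01 and 16.10 in control cut, 14.33 and 14.60 in mutant uncut, and 15.89 and 16.11 in mutant cut nerve. Mpeg1, a pore-forming protein of macrophages, rose by 3.24 in control and 3.32 in mutant nerve, and Msr1, a scavenger receptor, by 2.50 and 2.62. Differences were negative for 1 of the 20 in control and 2 in mutant nerve. The lowest was that of Cd163, at -0.46 and -0.50, and it was not called. None of the 20 markers lay below the 25th percentile on all arrays. Their part in the rise of the lysosomal genes was not tested.

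Among the V0 subunits, Atp6v0d2 showed the largest injury difference of the 35 genes. It encodes the d2 form of the stalk subunit, best known from osteoclasts and macrophages. It read 5.88 and 6.24 in control uncut, 11.11 and 11.07 in control cut, 5.50 and 5.88 in mutant uncut, and 11.21 and 11.10 in mutant cut nerve. Every uncut value lay below its array's median and every cut value far above it. The difference was 5.03 in control nerve (SE 0.16, 95% interval 4.66 to 5.41, 32.7-fold, adjusted p = 1.90e-06) and 5.46 in the mutant (interval 5.09 to 5.84, 44.1-fold, adjusted p = 2.46e-06). A second probe set gave 5.59 and 5.77. No detection calls were used, and background compresses the low uncut signal, so both fold values may be too small. Atp6v0d2 and Gla were the 2 genes of 35 that passed the signal filter through their cut arrays alone, so they could only pass by differing. The other 33 also passed on uncut arrays.

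Its paralog Atp6v0d1, the d1 form found in most cells, moved little. It read 10.72 and 10.61 in control uncut, 11.04 and 10.97 in control cut, 10.76 and 10.77 in mutant uncut, and 11.10 and 11.004 in mutant cut nerve. Cut and uncut arrays did not overlap, and the injury difference of 0.34 in control nerve passed (adjusted p = 0.0247), as did that of 0.29 in the mutant (adjusted p = 0.0461). These calls were thin. In control nerve the call was lost when any 1 of the 4 control arrays was left out (adjusted p from 0.0562 to 0.130), and in mutant nerve when any 1 of the 8 arrays was left out (0.0607 to 0.190).

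The remaining V0 subunits measured did not pass the test. Atp6v0a1, the a1 form of the proton channel subunit, differed by 0.04 in control (95% interval -0.26 to 0.34) and 0.22 in mutant nerve (-0.08 to 0.51). Its cut values of 8.61 to 9.002 overlapped uncut values of 8.56 to 8.73. Without control cut replicate 2 its control difference was -0.01, and without control uncut replicate 1 it was -0.02. Atp6v0e, a small membrane subunit, differed by 0.43 in control (adjusted p = 0.0661) and 0.28 in the mutant (adjusted p = 0.210). Its control difference passed when either mutant cut array was left out (adjusted p = 0.0364) or when only the control arrays were fitted (0.0388).

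**Figure D2:**
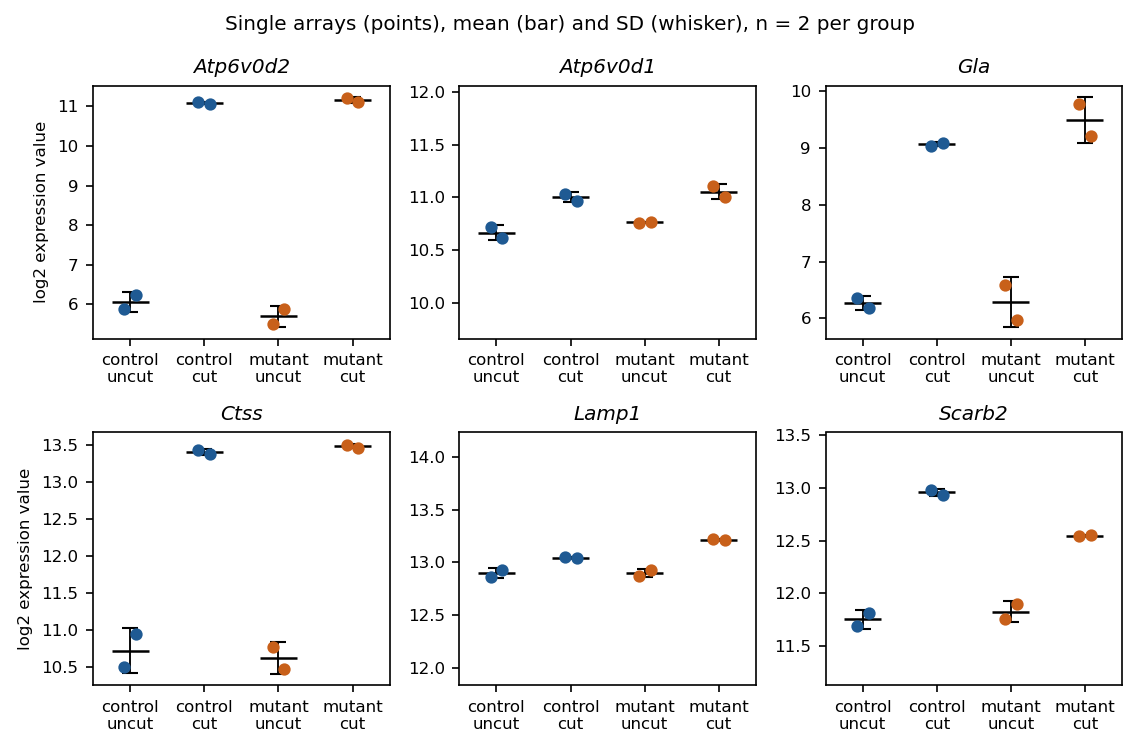
Log2 signal on each of the 8 arrays (points) for Atp6v0d2, Atp6v0d1, Gla, Ctss, Lamp1 and Scarb2, by group, with the vertical axis scaled for each panel. Atp6v0d2 lies between 5.50 and 6.24 in uncut and between 11.07 and 11.21 in cut nerve, while Lamp1 lies between 12.86 and 13.22 on all arrays.

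Of the 6 subunits of the V1 sector, 5 passed in control nerve (median difference 0.43) and 6 in mutant nerve (median 0.64). Atp6v1a, the catalytic A subunit, read 9.82 and 9.78 in control uncut, 10.72 and 10.76 in control cut, 9.86 and 9.80 in mutant uncut, and 11.05 and 10.96 in mutant cut nerve. It rose by 0.94 in control (adjusted p = 1.92e-04) and 1.17 in the mutant (adjusted p = 8.07e-05). Atp6v1b2, the B subunit that shares the ATP sites, rose by 0.86 and 0.94. Atp6v1c1, the C subunit that helps join V1 to V0, rose by 0.47 and 0.71.

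The stalk subunits of V1 lay nearer to the limit of the test. Atp6v1e1 rose by 0.39 and 0.56, and Atp6v1h, a regulatory subunit, by 0.37 and 0.36. Atp6v1d, part of the central rotor, differed by 0.17 in control nerve (adjusted p = 0.228) and rose by 0.41 in the mutant (adjusted p = 0.0154). The mutant call of Atp6v1d was lost without mutant cut replicate 2 or without mutant uncut replicate 2 (adjusted p = 0.0863 and 0.0923). The control call of Atp6v1e1 was lost without control cut replicate 1 or control uncut replicate 2 (adjusted p from 0.109 to 0.132). The calls of Atp6v1h were lost without any 1 of 5 arrays in control nerve (0.0548 to 0.205: both control cut arrays, control uncut replicate 2 and both mutant uncut arrays). In mutant nerve they were lost without any 1 of 6 arrays (0.0561 to 0.186: every array except those of control uncut nerve). Second probe sets of Atp6v1e1 and Atp6v1h, with differences of 0.35 and 0.07 in control nerve and 0.49 and 0.65 in mutant nerve, did not pass. The 2 probe sets of Atp6v1h thus differed in whether the genotypes read alike.

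All 9 cathepsins rose after injury in both genotypes, with median differences of 1.22 in control and 1.32 in mutant nerve. Ctss, the cathepsin of antigen-presenting cells, which stays active at neutral pH, changed most among them. It read 10.50 and 10.94 in control uncut, 13.43 and 13.37 in control cut, 10.77 and 10.47 in mutant uncut, and 13.50 and 13.46 in mutant cut nerve. The rise was 2.68 in control nerve (SE 0.16, 6.41-fold, adjusted p = 2.24e-05) and 2.86 in the mutant (7.27-fold, adjusted p = 2.06e-05). Every cut array read higher than every uncut array, and the mutant cut arrays lay just above the control cut arrays, a difference that did not pass.

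Ctsd, the main aspartic protease of lysosomes, came next. It read 12.03 and 11.87 in control uncut, 13.77 and 13.68 in control cut, 11.87 and 12.03 in mutant uncut, and 13.82 and 13.68 in mutant cut nerve, a rise of 1.78 in control and 1.80 in mutant nerve. Ctsh, an aminopeptidase, rose by 1.61 and 1.39. Ctsl and Ctsb, cysteine proteases of broad range, rose by 1.22 and 1.41, and by 1.10 and 1.13. Ctsa, the protective protein that shields beta-galactosidase and neuraminidase, rose by 1.31 and 1.32, and Ctsz, a carboxypeptidase, by 1.09 and 1.13. Ctsk, the collagen-cleaving cathepsin of osteoclasts, rose by 1.08 and 0.89, and Ctsc, which activates granule proteases, by 0.98 and 0.89.

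Probe sets of a gene gave different sizes for some cathepsins. The 5 probe sets of Ctsb ranged from 1.10 to 2.25 in control and from 1.13 to 2.20 in mutant nerve, and all passed. A dimmer probe set of Ctsa gave 0.25 and 0.30 and did not pass, and one of Ctsc gave 0.39 and 0.19 and did not pass. Over all lysosomal genes, in a fit of every kept probe set with a gene name, 52 of 71 were called higher in control nerve, against 19.4% of all 20953, and 54 in mutant nerve, against 15.9%.

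Of the 8 glycosidases and lipid hydrolases, 7 rose in control nerve and 6 in mutant nerve, with medians of 1.08 and 1.05. Gla, the alpha-galactosidase that clears globotriaosylceramide, read 6.35 and 6.18 in control uncut, 9.03 and 9.08 in control cut, 6.59 and 5.98 in mutant uncut, and 9.76 and 9.20 in mutant cut nerve. It rose by 2.79 in control (SE 0.24, 6.90-fold, adjusted p = 1.03e-04) and by 3.20 in the mutant (9.16-fold, adjusted p = 6.52e-05). All 4 uncut values lay below their arrays' medians, so these folds too may be too small. Gla passed the signal filter through its cut arrays alone, so its test and its place in these counts are no independent result. Of its 3 probe sets only 1 passed the filter. Gusb, beta-glucuronidase, read 9.16 and 9.11 in control uncut, 11.44 and 11.11 in control cut, 9.34 and 8.98 in mutant uncut, and 11.64 and 11.30 in mutant cut nerve, a rise of 2.14 and 2.31. Both genes had wide gaps between injury states and overlapping values between genotypes in uncut nerve.

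Lipa, the acid lipase that frees cholesterol from its esters, rose by 1.33 in control and 1.24 in mutant nerve. Hexa, the alpha chain of beta-hexosaminidase, rose by 1.11 and 1.29, and Glb1, beta-galactosidase, by 1.04 and 0.86. Galc removes galactose from galactosylceramide, a main lipid of myelin. It rose less than those genes in value, by 0.57 (adjusted p = 0.0125) and 0.66 (adjusted p = 0.00781), and its control call was lost without control cut replicate 2 or either control uncut array (adjusted p from 0.0547 to 0.0721).

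Neu1, a sialidase, and Asah1, acid ceramidase, were the least changed hydrolases. Neu1 rose by 0.36 in control nerve (adjusted p = 0.0325) and differed by 0.31 in the mutant (adjusted p = 0.0580). Its control call was lost without control cut replicate 1 or either control uncut array (0.0743 to 0.158). Asah1 differed by 0.27 and 0.25, with adjusted p of 0.0804 and 0.0980. Its cut arrays read 11.64 to 11.85 and its uncut arrays 11.45 to 11.53.

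The precursors both rose. Psap, which is cut into the saposins that present lipids to hydrolases, read 11.27 and 11.57 in control uncut, 13.14 and 13.14 in control cut, 11.39 and 11.36 in mutant uncut, and 13.06 and 12.93 in mutant cut nerve. Its rise was 1.72 in control (adjusted p = 4.15e-05) and 1.62 in the mutant (adjusted p = 6.54e-05). Grn, the granulin precursor, rose by 1.01 and 1.12.

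Proteins of the lysosomal membrane and of cholesterol export split by size. Laptm5, a membrane protein of blood-derived cells, read 9.56 and 10.14 in control uncut, 11.97 and 11.79 in control cut, 10.03 and 9.63 in mutant uncut, and 11.98 and 11.95 in mutant cut nerve. It rose by 2.03 and 2.14. Other probe sets of Laptm5 gave 0.93 and 1.65 in control nerve, and a last one gave -0.08 in control and -0.15 in mutant nerve, neither called. It was the only kept probe set of the 71 with a negative injury difference in either genotype.

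The LAMP proteins, which make up much of the lysosomal membrane, changed little. Lamp1 read 12.86 and 12.93 in control uncut, 13.05 and 13.04 in control cut, 12.87 and 12.93 in mutant uncut, and 13.22 and 13.22 in mutant cut nerve. It differed by 0.15 in control nerve (95% interval -0.06 to 0.35, adjusted p = 0.221) and rose by 0.32 in the mutant (adjusted p = 0.0254). Lamp2 differed by 0.27 in control (adjusted p = 0.113) and rose by 0.54 in the mutant (adjusted p = 0.0111), but its 4 probe sets disagreed: 1 other passed, at 0.42 in control and 0.50 in mutant nerve, and 2 passed in neither genotype. Without any 1 of the 4 mutant arrays the mutant call of Lamp1 was lost (adjusted p from 0.0710 to 0.108), and without mutant cut replicate 1 or mutant uncut replicate 2 that of Lamp2 (0.0505 to 0.0690).

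Npc1 and Npc2 pass cholesterol out of the lysosome. Npc1 differed by 0.28 in control nerve (adjusted p = 0.0913) and rose by 0.67 in the mutant (adjusted p = 0.00365). Npc2 rose by 0.38 (adjusted p = 0.0324) and 0.35 (adjusted p = 0.0442). Another of its probe sets gave 0.25 and 0.21 and did not pass. Npc2 lost its mutant call with no filter, averaged probe sets, median centring or quantile normalization (adjusted p from 0.0516 to 0.0804). Its control call was lost without either control cut array or control uncut replicate 2 (0.0685 to 0.174), and its mutant call without any 1 of the 8 arrays (0.0515 to 0.189).

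**Figure D3:**
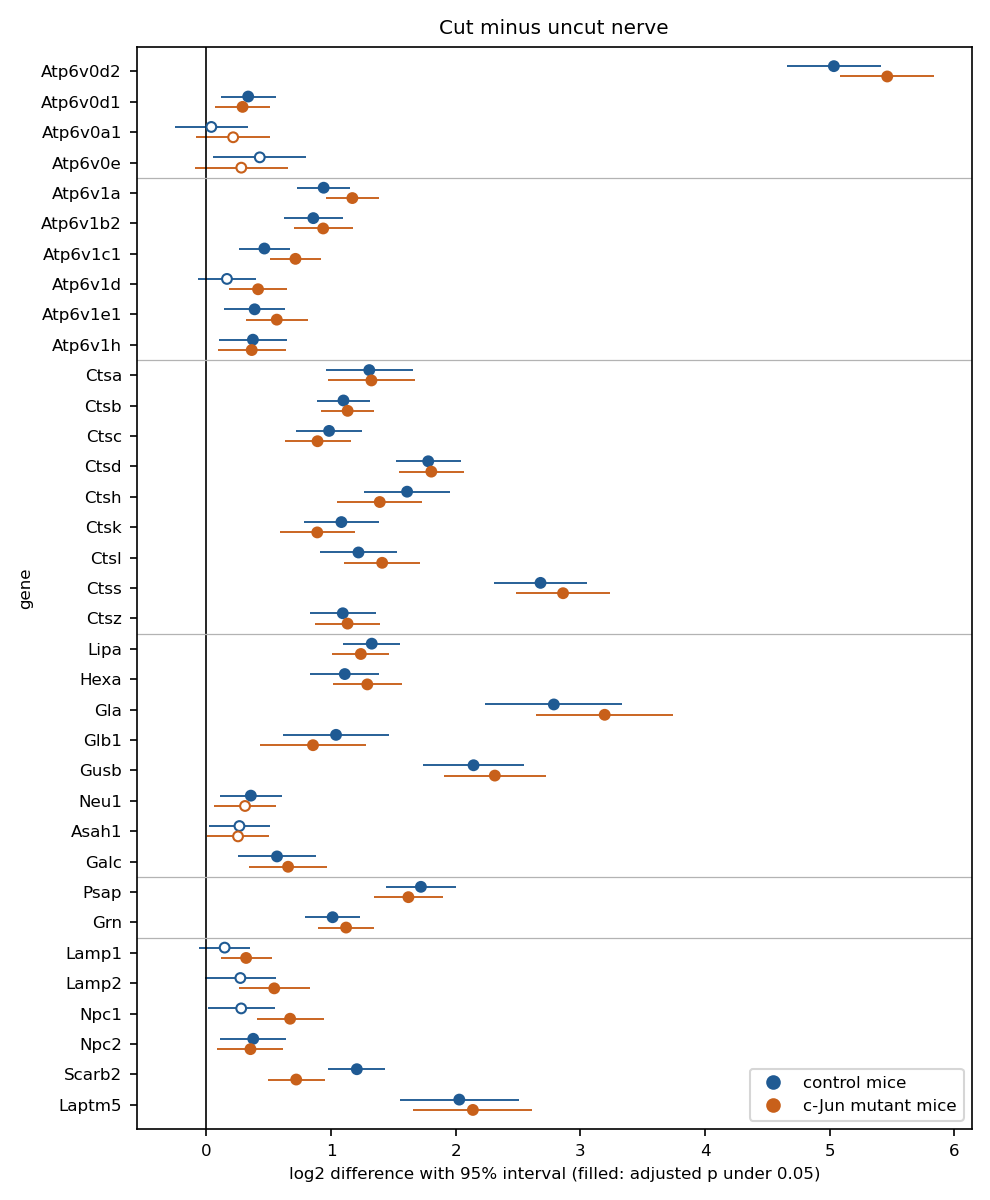
Difference between cut and uncut nerve (log2) for each of the 35 genes in control and in mutant nerve, with 95% confidence intervals from limma and filled points where the adjusted p was under 0.05. All 35 points lie above 0 in both genotypes, from 0.04 and 0.22 for Atp6v0a1 to 5.03 and 5.46 for Atp6v0d2.

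In all, 27 genes were called higher in both genotypes, 1 in control nerve only (Neu1) and 4 in mutant nerve only (Atp6v1d, Lamp1, Lamp2 and Npc1). Of all genes, at most 18.1% can be higher in both, since that share was called higher in mutant nerve. Passing in 1 genotype alone does not show that the genotypes differ, and the interaction test, which compares the injury response of mutant with that of control nerve directly, called 0 of 35 genes, against 0.165% of all genes (20). At an unadjusted p under 0.05 it gave 2 of 35 (5.71%, against 6.04% of all genes). The injury difference was larger in the mutant for 22 genes and larger in the control for 13, while over all genes it was larger in the mutant for 4785 and in the control for 7309.

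The loss of c-Jun was compared in cut nerve as mutant minus control. Again 0 of 35 genes were called, against 1.09% of all genes (132). At an unadjusted p under 0.05 the count was 3 of 35 (8.57%, against 8.61% of all genes). The median absolute difference between genotypes was 0.12. For all 35 genes the 95% interval lay within 2-fold either way, with distances from the estimate to the bound of 0.20 to 0.55. Genotype differences of 2-fold or more in cut nerve thus lay outside every one of these intervals, while smaller ones lay inside some of them.

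Scarb2, also known as LIMP-2, carries glucocerebrosidase to the lysosome and had the lowest p of the 35 genes between genotypes in cut nerve. It read 11.69 and 11.81 in control uncut, 12.98 and 12.93 in control cut, 11.75 and 11.89 in mutant uncut, and 12.54 and 12.55 in mutant cut nerve. It rose after injury in both genotypes, by 1.21 in control (adjusted p = 8.81e-05) and by 0.72 in the mutant (adjusted p = 0.00127), and the mutant cut arrays lay below the control cut arrays. In cut nerve the mutant minus control difference was -0.41 (95% interval -0.64 to -0.18, adjusted p = 0.150), and the interaction was -0.49 (interval -0.81 to -0.16, adjusted p = 0.423). A second probe set gave -0.43 and -0.48. Neither comparison passed, and in cut nerve the adjusted p ranged from 0.0703 to 0.557 over the alternatives tried.

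All 6 V1 subunits read higher in mutant than in control cut nerve on average, by 0.12 to 0.26, and 0 passed. Of all 12094 genes, 5614 had a positive difference. Atp6v1a differed by 0.26 (95% interval 0.05 to 0.47, adjusted p = 0.408) and Atp6v1c1 by 0.21 (interval 0.01 to 0.41, adjusted p = 0.562). The mutant cut arrays lay above the control cut arrays for both, and also for Atp6v1b2, Atp6v1d and Atp6v1e1, but not for Atp6v1h. How often this held over all genes was not counted, so nothing is read from it. Gla had the highest mean difference, 0.42 (interval -0.12 to 0.97, adjusted p = 0.753), but 1 of its mutant arrays, at 9.20, was close to the control value of 9.08. Ctsc differed by -0.23 (adjusted p = 0.676), and Atp6v0d2 by 0.06 (adjusted p = 0.978).

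In uncut nerve 0 of 35 genes were called between genotypes, and 0% of all genes tested were. At an unadjusted p under 0.05 the count was 0 of 35, against 2.66% of all genes. Differences ran from -0.36 for Atp6v0d2 to 0.19 for Glb1, with a median of 0.01. The low signal of Atp6v0d2 in uncut nerve limits what its value there can show.

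**Figure D4:**
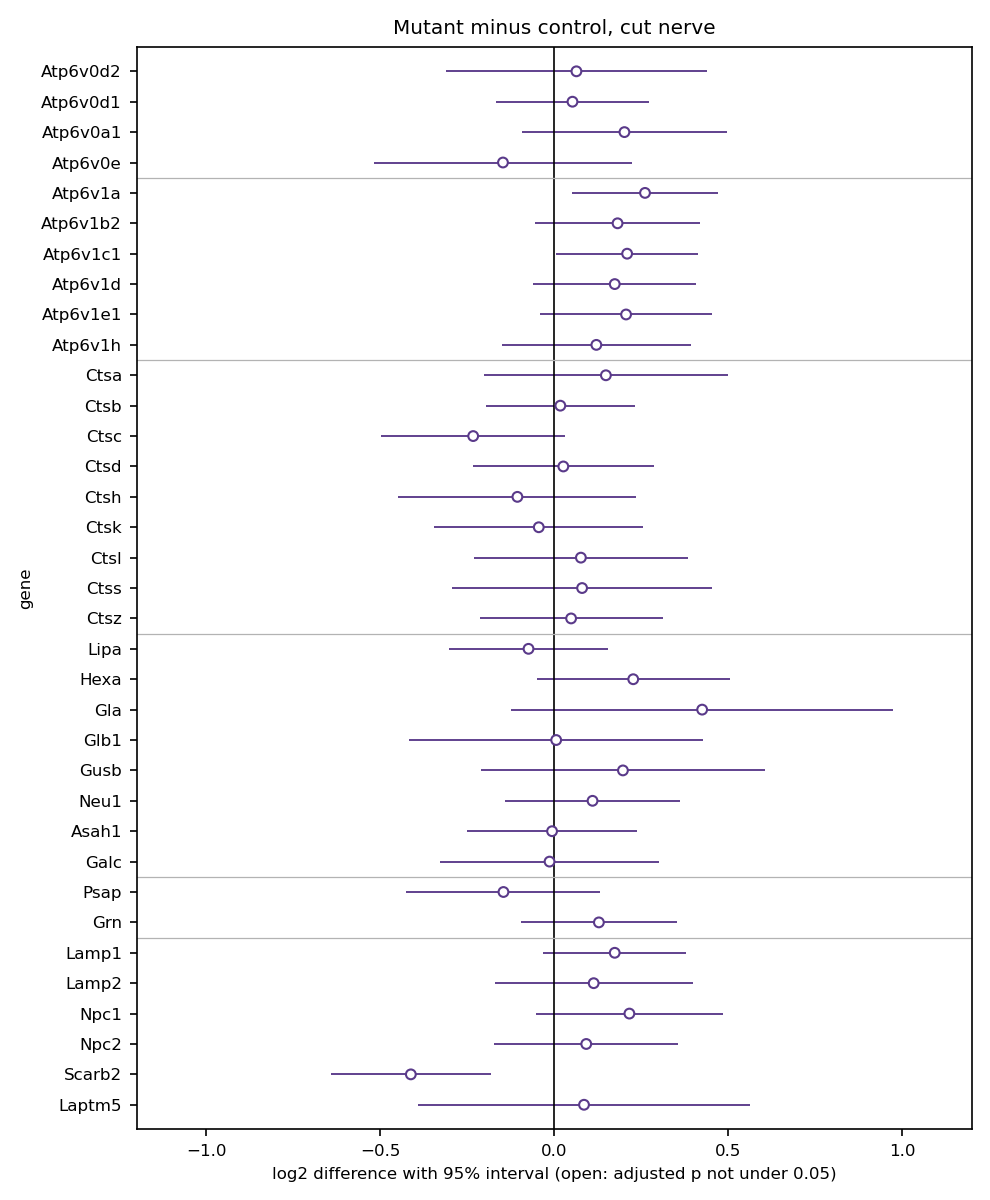
Difference between mutant and control cut nerve (log2) for each of the 35 genes, with 95% confidence intervals from limma. Every point is open because none passed an adjusted p of 0.05, and the estimates run from -0.41 for Scarb2 to 0.42 for Gla.

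Other genes of the same pathways moved both ways after injury. Their counts stand beside 22.8% of all genes higher and 17.5% lower in control nerve, and 18.1% and 17.8% in mutant nerve. Of 14 further V-ATPase genes, 9 were measured. In each genotype 4 were higher and 1 was lower. Tcirg1, the a3 channel subunit known from osteoclasts and macrophages, rose by 1.56 in control and 1.66 in mutant nerve, and Atp6v0b by 0.74 and 0.78. Atp6v0e2 fell by 0.79 in control and 0.84 in mutant nerve. Of 35 further hydrolases and cofactors, 28 were measured, of which 10 rose and 3 fell in control nerve and 11 rose and 2 fell in mutant nerve. Lgmn, an asparaginyl protease that processes cathepsins, rose by 2.38 and 2.39, Galns, a sulfatase of keratan sulfate, by 2.02 and 1.80, and Man2b1, an alpha-mannosidase, by 1.59 and 1.46. Ids, iduronate sulfatase, fell by 0.91 in both genotypes. The median was 0.28 in control and 0.22 in mutant nerve, against 1.01 and 0.89 for the 35 genes. Both lists were chosen with earlier results of these data known, so no conclusion is drawn from which rose more.

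Of 18 further lysosomal membrane proteins, 15 were measured, and 5 rose and 2 fell in each genotype. Cd68, the macrophage sialomucin, rose by 3.57 and 3.48, and Slc11a1, a metal ion carrier of phagosomes, by 1.90 and 1.38. Abca2, a lipid carrier of myelinating cells, fell by 1.26 and 1.46. Of 16 genes for sorting enzymes to the lysosome, 2 rose and 1 fell in control nerve and 4 rose and 1 fell in mutant nerve, so the share that rose (12.5% and 25%) lay on either side of that of all genes. Igf2r, the large mannose 6-phosphate receptor, rose by 0.997 and 0.86, and Sort1, sortilin, fell by 1.06 and 0.57. Of 9 cathepsin inhibitors 5 were measured, and 3 rose in control and 4 in mutant nerve. Cst6 rose by 2.31 and 2.56 and Cstb, stefin B, by 1.17 and 1.28, while Cst3, cystatin C, differed by 0.07 and 0.02 and did not pass. Between genotypes in cut nerve limma called 0 genes of these lists, and 1, in the sorting list, had an unadjusted p under 0.05.

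The MiT factors, which bind E-box sites before many lysosomal genes, and their regulators made up 11 genes, of which 10 were measured. In each genotype 4 rose, and 1 fell in control nerve. The shares of all genes were 22.8% higher and 17.5% lower in control nerve, and 18.1% and 17.8% in mutant nerve. Those that rose were regulators: Rragd, a Rag GTPase, by 1.71 and 1.84, Fnip2 by 1.17 and 1.51, Fnip1 by 0.62 and 0.90, and Flcn, folliculin, by 0.43 and 1.04. The factors themselves moved less. Tfeb differed by -0.03 and 0.07 and Tfe3 by 0.28 (adjusted p = 0.0601) and 0.19 and did not pass, and Mitf fell by 0.34 in control nerve. Flcn was higher in mutant than in control cut nerve by 0.46 (adjusted p = 0.129), with an interaction of 0.61 (adjusted p = 0.266), and neither passed.

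Markers of the other cell types are given as values beside the lysosomal genes. Of all genes tested, 22.8% were higher and 17.5% lower in control nerve, and 18.1% and 17.8% in mutant nerve. Between genotypes in cut nerve 1.09% of all genes were called. Small counts in these short lists are not read as results about a cell type. Of 7 measured Schwann cell markers (of 10 listed), 1 rose and 4 fell in control nerve, and 2 rose and 4 fell in mutant nerve. Mag, a myelin protein, fell by 2.90 and 3.28, Ngfr, a receptor of Schwann cells without myelin, rose by 3.93 and 3.39, and Sox10, which defines the lineage, did not pass. The log2 of the summed Schwann cell signal was 15.14 to 15.18 in control uncut, 13.95 to 13.96 in control cut, 15.03 to 15.12 in mutant uncut, and 14.11 to 14.24 in mutant cut nerve. Of 8 skeletal muscle genes 6 rose in control and 8 in mutant nerve. Their log2 summed signal was 14.63 to 15.48 in control uncut, 16.32 to 16.56 in control cut, 14.72 to 15.53 in mutant uncut, and 16.40 to 16.97 in mutant cut nerve. In fibroblast genes 4 of 8 rose in each genotype, and of 8 endothelial genes 0 rose, while 1 fell in control and 4 fell in mutant nerve. Between genotypes in cut nerve, 1 Schwann cell marker was called higher in the mutant (adjusted p = 0.0212) and 1 fibroblast marker lower (adjusted p = 0.0160). Of 4 measured lymphocyte genes 2 rose in each genotype. In cut nerve 1 lymphocyte gene was also called between genotypes: Gzmb, a granzyme, with a mutant minus control difference of -2.25 (adjusted p = 0.0236). The log2 summed lymphocyte signal was 8.90 to 8.99 in control uncut, 12.20 to 12.25 in control cut, 8.98 to 9.12 in mutant uncut, and 10.22 to 10.83 in mutant cut nerve. Such a sum gives most weight to bright genes and is no measure of lymphocyte number. Gzmb rose by 6.31 in control and 3.89 in mutant nerve, while Cd3e differed by 0.08 and -0.03. Over the 4 measured genes the median genotype difference in cut nerve was -0.10. Of 8 mast cell genes 1 rose in control and 3 fell in mutant nerve, and of 2 measured neutrophil genes 0 passed. The part of these markers in the rise of the lysosomal genes was not tested.

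Osteoclasts share Atp6v0d2, Ctsk and Tcirg1 with activated macrophages. Of 11 osteoclast genes, which include Atp6v0d2 and Ctsk, 7 were measured. In control nerve 2 rose, Atp6v0d2 and Ctsk themselves, and 1 fell, against 22.8% of all genes higher and 17.5% lower. In mutant nerve 3 rose, those 2 among them, and 2 fell, against 18.1% and 17.8%. Acp5, the tartrate-resistant phosphatase that defines osteoclasts, differed by -0.39 in control (adjusted p = 0.275) and -0.77 in the mutant (adjusted p = 0.0560). Calcr, the calcitonin receptor, lay below the 25th percentile on all arrays.

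Promoter sequence was set beside these values as a description only. The genes were chosen as lysosomal genes, and MiT factors bind before many lysosomal genes. A high share of MiT sites therefore goes with the choice of genes and does not bear on injury. RefSeq windows of the 250 bases before the gene start (GRCm38.p6) were matched for 28 of 36 genes, giving 32 windows. Atp6v0d2, with the largest injury difference, was among the 8 genes without a window. Both strands were searched for the E-box CACGTG, for TCACGTGA and GTCACGTG (MiT sites, which contain the E-box), for TGACTCA and TGANTCA (AP-1 sites of c-Jun and its partners, of which the first is contained in the second) and for AGGAAGT (a core bound by PU.1, a macrophage factor). The E-box was in 7 of 32 windows (21.9%) against 6.02% of all 32851 windows, TCACGTGA in 4 (12.5%) against 0.785%, and GTCACGTG in 5 (15.6%) against 1.85%. TGACTCA was in 3 (9.38%, the windows of Glb1, Neu1 and Psap) against 4.46%, TGANTCA in 4 (12.5%) against 6.75%, and AGGAAGT in 3 (9.38%) against 7.69%. The windows with TCACGTGA are printed below, with that of Lamp1, which holds the E-box 4 times, for contrast. They are Gla (chrX:134601006-134601255, minus strand), Ctsd (chr7:142387828-142388077, minus), Ctsa (chr2:164833523-164833772, plus), Atp6v1a (chr16:44139260-44139509, minus) and Lamp1 (chr8:13158911-13159160, plus), each in the direction of the gene with the E-box in capitals.
Gla: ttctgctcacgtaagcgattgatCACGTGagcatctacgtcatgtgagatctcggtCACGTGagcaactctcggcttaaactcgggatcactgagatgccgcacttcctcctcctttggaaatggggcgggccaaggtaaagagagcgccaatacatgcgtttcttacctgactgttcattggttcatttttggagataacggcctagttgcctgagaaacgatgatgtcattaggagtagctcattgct
Ctsd: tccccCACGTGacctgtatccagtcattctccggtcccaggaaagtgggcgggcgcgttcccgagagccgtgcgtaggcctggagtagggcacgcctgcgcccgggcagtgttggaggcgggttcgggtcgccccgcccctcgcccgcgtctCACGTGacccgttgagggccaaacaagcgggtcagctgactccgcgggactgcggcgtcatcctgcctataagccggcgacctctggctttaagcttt
Ctsa: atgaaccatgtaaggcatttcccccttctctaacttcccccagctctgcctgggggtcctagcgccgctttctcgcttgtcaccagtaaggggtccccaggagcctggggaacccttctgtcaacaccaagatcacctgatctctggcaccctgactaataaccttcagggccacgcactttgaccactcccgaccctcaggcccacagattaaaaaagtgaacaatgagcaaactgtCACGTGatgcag
Atp6v1a: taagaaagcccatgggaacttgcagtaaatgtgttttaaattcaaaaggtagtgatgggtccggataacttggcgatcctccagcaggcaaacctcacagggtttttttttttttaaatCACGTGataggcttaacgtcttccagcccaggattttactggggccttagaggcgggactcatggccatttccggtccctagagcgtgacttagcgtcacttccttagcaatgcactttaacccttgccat
Lamp1: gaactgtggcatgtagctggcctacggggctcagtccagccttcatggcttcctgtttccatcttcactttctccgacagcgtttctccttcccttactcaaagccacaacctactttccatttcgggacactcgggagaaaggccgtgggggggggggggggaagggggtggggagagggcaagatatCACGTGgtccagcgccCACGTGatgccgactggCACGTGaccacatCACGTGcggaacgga

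The E-box began at -227 and -194 from the start of Gla, at -245 and -98 in Ctsd, at -12 in Ctsa, at -131 in Atp6v1a, and at -61, -45, -28 and -15 in Lamp1. Injury differences of these genes in control nerve were 2.79 for Gla, 1.78 for Ctsd, 1.31 for Ctsa, 0.94 for Atp6v1a and 0.15 for Lamp1. Ctsl and Glb1, the other genes with the E-box, at -236 and -48, differed by 1.22 and 1.04. Lamp1 was picked for its small difference, so no order of these values bears on the motif. Matches describe letters in a window and show no binding.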

How the data were processed

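RNA of 8 pooled nerve samples was measured on 1-colour Affymetrix arrays. The deposited values are log2 signals per probe set (45101), made with RMA and affy per the submitters' processing notes, in versions that are not stated. RMA equalises arrays and compresses dim differences. Gene names came from the platform annotation, and probe sets with several gene names (932) were not read as genes. Probe sets above their array's median on at least 2 arrays were kept (24220), and each gene was read through the one of highest mean. limma 3.58.1 (R 4.3.3) fitted a mean per group over all 8 arrays, and p-values were adjusted by Benjamini-Hochberg over 12094 genes. Every adjusted p is limma's. The test was checked on simulated data. Groups came from the labels, and the 2 arrays per group limit the precision. The genes and lists were chosen with earlier results of these data known. Any of the 36 genes could be named. Results turn on those with the 10 largest called injury differences, the lowest p between genotypes, or probe sets of opposite sign. Of each related list up to 4 called genes are named, of each marker list up to 3. Other names were picked with values in view. Alternatives changed the filter, probe set rule, normalization, variance model, replicate block, arrays fitted and arrays left out. A planned alignment of paralog proteins was not made.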

Additional observations from a re-analysis of the deposited data

How the results depend on the processing

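The count of lysosomal genes called stayed within 1.5 times under every alternative run: leaving out 1 array gave 22 to 29 higher in control and 25 to 29 in mutant nerve, with 0 lower and 0 between genotypes. Of single genes, 9 of 28 calls in control and 10 of 31 in mutant nerve were lost under at least 1 alternative. Signs turned for Atp6v0a1 in control nerve on leaving out an array (-0.019 at the lowest, 0.10 at the highest) and for a probe set of Laptm5 (-0.082 in control, -0.15 in mutant nerve). The cause was not tested. Counts over all genes moved more. The interaction count of 20 became 33 with no filter, 11 with a filter at the 75th percentile, 33 with probe sets of a gene averaged, 31 with trended and robust variance, and 0 to 45 on leaving out an array. The genotype count in cut nerve (132) became 31 with only the arrays compared, 55 without the cut array of higher milk protein signal in each genotype, and 13 to 111 on leaving out an array. In uncut nerve 0 became 1 with probe sets of a gene averaged, 9 with only the arrays compared, 9 without those milk protein arrays, and 0 to 2 on leaving out an array. The injury count in mutant nerve (4348) became 2783 without those arrays and 2734 to 4260 on leaving out an array, and that in control nerve (4879) 3388 to 4715. Same-numbered arrays deviated together by r = 0.02 to 0.34, but with 2 numbers they share only a number. With the replicate block 29 lysosomal genes were higher in control and 31 in mutant nerve, and the genotype count in uncut nerve became 4. The call of Atp6v0e in control nerve was gained (adjusted p = 0.0126). Without detection calls, signal near background limits Atp6v0d2 and Gla in uncut nerve.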
